A study of Mus musculus with 12 samples.

Results

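The clustered protocadherins are cell-surface adhesion proteins encoded by 3 neighbouring gene clusters, alpha, beta and gamma, on mouse chromosome 18. Taking every protein-coding gene there whose symbol is Pcdha, Pcdhb or Pcdhg with an isoform number gave 57 of the 21900 protein-coding genes in the gene table: 14 alpha, 22 beta and 21 gamma genes. The isoforms called C-type by their symbols numbered 5, namely Pcdhac1, Pcdhac2, Pcdhgc3, Pcdhgc4 and Pcdhgc5, which left 12 alternate alpha and 18 alternate gamma genes. The choice of genes used symbols and position only, and no measured value, though it was made with earlier results of these data known.

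In the alpha and gamma clusters each isoform has its own promoter and its own variable exon, which is spliced to constant exons shared by the whole cluster, whereas each beta gene is a complete exon of its own. A single neuron is known to use a small, largely random set of the alternate promoters, and the C-type promoters are used more uniformly across neurons. The resulting surface code lets a neuron tell its own branches from those of other cells. Promoter choice is known to depend on the insulator protein CTCF, on cohesin, on distal enhancers and on DNA methylation, and unchosen promoters are kept silent.

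Open chromatin was mapped by ATAC-seq, which marks accessible DNA with a transposase, in cells sorted as positive for both Arc, a marker of recent activity, and NeuN, a marker of neurons. The cells came from infralimbic prefrontal cortex (ILPFC) of adult male C57BL/6 mice aged 10 to 12 weeks. EXT (extinction) mice received 3 tone and shock pairings and on the next day heard 60 tones in a different context, and RC (retention control) mice received the same 3 pairings and then spent the same time in that context with no tone. Tissue was taken straight afterwards, and 5 mice were pooled for each library of 50000 cells. No genetic manipulation is stated for either group.

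The peak lists used were those of EXT replicate 1, EXT replicate 2 and RC replicate 3, made from 65.0, 57.7 and 73.8 M tags. The lists of RC replicates 1 and 2 stop on chromosome 1 as held here and so do not reach these genes. EXT replicate 3, which its label marks as dropped for low yield, and the lncRNA capture libraries were not analysed here. With 2 EXT libraries and 1 RC library, no test between the groups was possible. The lists held 80735, 123375 and 97961 peaks, so EXT replicate 2 gave the longest list from the smallest number of tags. Marker genes were read against the sort: a promoter peak was called at 6, 7 and 6 of 7 scored neuronal genes in EXT replicate 1, EXT replicate 2 and RC replicate 3, at 4 of 4 excitatory genes in every list, and at 0, 1 and 1 of 6 inhibitory genes. Of the markers of other cells, 0 of 3 microglial genes had a promoter peak in any list, 0, 1 and 0 of 4 oligodendrocyte genes did, 1 of 5 astrocyte genes did in each list (Aldoc), and 1, 2 and 2 of 5 endothelial genes did (Cldn5 in every list). Rbfox3, the gene of the sorted protein NeuN, had a promoter peak in 1 of the 3 lists, and Arc was not scored.

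A gene was counted as having a promoter peak where a peak called by the authors in that library overlapped the 1000 bp on either side of its start by at least 1 bp. Because neighbouring starts lie at least 4154 bp apart, no window touched another. A peak sums over all sorted cells, so a promoter open in few cells and a promoter weakly open in many cannot be told apart, and an absent peak means only that none was called at this depth.

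Few clustered protocadherin promoters carried a peak, and of the 8 genes with one in any list 4 were C-type. A promoter peak was found at 6 of 57 genes in EXT replicate 1 (10.5%, exact Clopper-Pearson 95% interval 3.96 to 21.5%), at 8 of 57 in EXT replicate 2 (14.0%, 6.26 to 25.8%) and at 6 of 57 in RC replicate 3 (10.5%, 3.96 to 21.5%). The same measure over the 17492 other protein-coding genes with a known strand gave 50%, 56.4% and 52%. These intervals cover counting error only, and genes of one cluster are not independent of each other. The share of the clustered genes minus that of the other genes was -41.1 ± 1.49 percentage points (SD over 3 libraries), with the same sign in every library.

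The 5 C-type promoters stood apart from the other 52. A promoter peak was called at 4 of 5 C-type genes (80%) in each of the 3 lists. Among the 52 other members it was called at 2 in EXT replicate 1 (3.85%), at 4 in EXT replicate 2 (7.69%) and at 2 in RC replicate 3 (3.85%). The difference was 74.9 ± 2.22 percentage points (SD, n = 3 libraries), and it was worked out after the values had been seen. With only 5 genes the 95% interval of the C-type share runs from 28.4 to 99.5%, which takes in the share of other protein-coding genes.

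**Figure D1:**
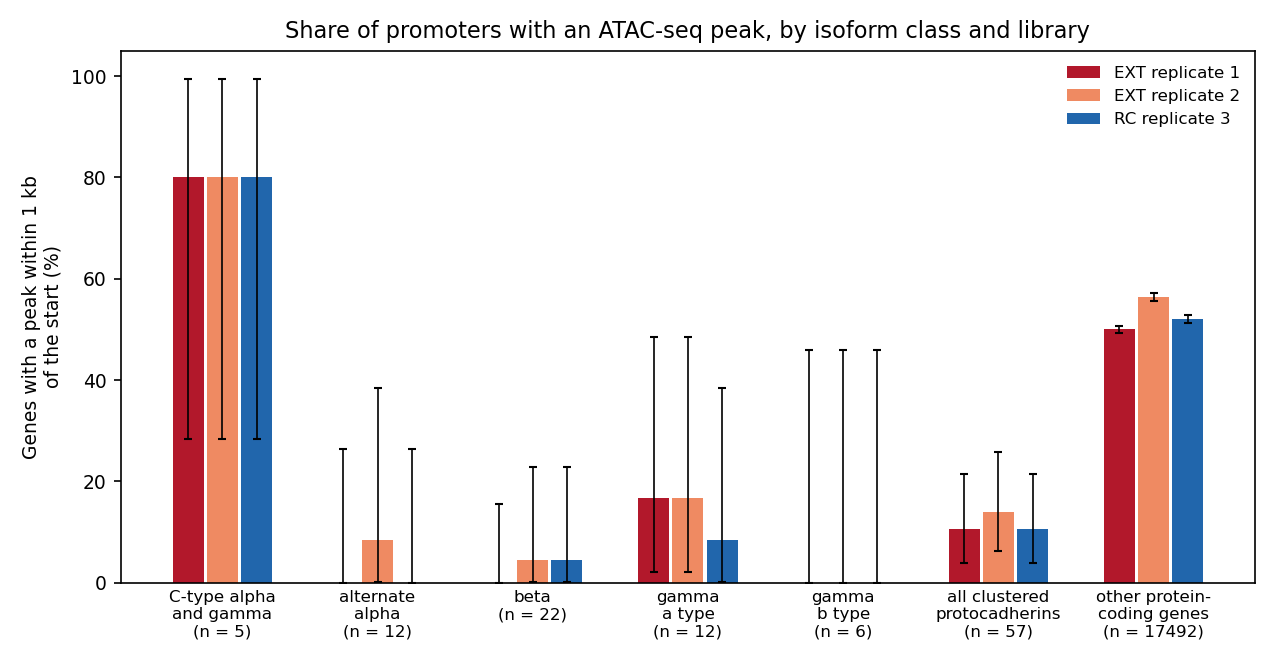
Percentage of genes with a peak within 1 kb of the start, for each class of clustered protocadherin and for the other protein-coding genes, in EXT replicates 1 and 2 and RC replicate 3; lines are exact 95% binomial intervals. The C-type bars stand at 80% in every library, all other protocadherin classes lie below 20%, and the other protein-coding genes lie between 50% and 56.4%.

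Between the clusters, the beta genes, none of them C-type, had the fewest promoter peaks. In the order EXT replicate 1, EXT replicate 2 and RC replicate 3, the count was 2, 3 and 2 of 14 alpha genes, 0, 1 and 1 of 22 beta genes, and 4, 4 and 3 of 21 gamma genes. The alpha share exceeded the beta share by 13.6 ± 3.62 percentage points and the gamma share exceeded it by 14.4 ± 4.65 points, whereas gamma and alpha differed by 0.79 ± 3.64 points, less than the spread between libraries (SD, n = 3 each). An exact sign-flip permutation over 3 libraries cannot give p under 0.25, so these differences are given as values. Both alpha genes with a peak in EXT replicate 1 and RC replicate 3 were C-type, whereas of the gamma genes 2 were C-type in every list. Without the C-type genes the alternate alpha genes had a promoter peak at 0, 1 and 0 of 12, the gamma a type at 2, 2 and 1 of 12, and the gamma b type at 0 of 6 in every list. Against the beta share, the alternate alpha share was equal in EXT replicate 1, higher in EXT replicate 2 and lower in RC replicate 3.

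The split between the training groups was small. The share with a promoter peak averaged 12.3 ± 2.48% in the EXT libraries (SD, n = 2), against 10.5% in the single RC library. The difference of 1.75 points is smaller than the spread between the EXT libraries. Of the 57 genes, 5 had a promoter peak in all 3 lists (Pcdhac1, Pcdhac2, Pcdhga11, Pcdhgc3 and Pcdhgc5), where 46.3% of the other protein-coding genes did. Pcdhga12 alone had a peak in the 2 EXT lists but none in the RC list, 1 of 57 against a background of 1.8%. The reverse pattern, a peak in the RC list alone, was found at 0 of 57 genes, against a background of 0.846%. Pcdha9 had one in EXT replicate 2 only, and Pcdhb20 in EXT replicate 2 and RC replicate 3. The remaining 49 genes, against 40.8% of the other protein-coding genes, had no promoter peak in any list: 11 alternate alpha, 21 beta, 16 alternate gamma genes and Pcdhgc4.

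Each peak has a fold, the authors' ratio of its tag pileup to the local background, and a place in the ranking of its own list, and neither is compared between lists as a change. Pcdhac1, the alpha C-type isoform that follows the alternate exons, had the strongest C-type alpha promoter peak. In EXT replicate 1 its best peak ran from -311 to -70 bp of the start, minus signs meaning before it, with a pileup of 67 tags and a fold of 9.97, above 94.9% of the peaks of that list. In EXT replicate 2 it ran from -457 to -73 bp of the start with 40 tags and a fold of 7.29, above 72.6% of the list. In RC replicate 3 a peak of 598 bp spanned the start, with 55 tags and a fold of 6.59, above 82.7% of the list. The peak thus lay at or just before the start in all 3 libraries and ranked in the upper part of each list.

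Pcdhac2, the last alpha isoform before the constant exons, had a weak promoter peak in every list. In EXT replicate 1 it was 282 bp wide with 27 tags and a fold of 2.42, above only 9.52% of the peaks in its list. In EXT replicate 2 it was 646 bp wide with 34 tags and a fold of 3.02, above 29.6%. In RC replicate 3 it was 297 bp wide with 29 tags and a fold of 2.51, above 13.1%. All 3 peaks lay at or just before the start, in the lower part of their lists.

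Pcdhgc3, the gamma C-type isoform known to act on Wnt signalling through Axin1, had a peak inside the gene in all 3 lists and a further peak at its start in EXT replicate 2 and RC replicate 3. EXT replicate 1 had only the inner peak, 150 bp wide, from 649 to 798 bp after the start, with 29 tags and a fold of 3.44. EXT replicate 2 had a peak of 460 bp across the start with 86 tags and a fold of 8.55, above 90.4% of its list, and an inner peak of 230 bp from 588 to 817 bp with 38 tags and a fold of 3.76. RC replicate 3 had a peak of 211 bp at the start with 27 tags and a fold of 3.05, and an inner peak with the bounds seen in EXT replicate 1 and a fold of 3.12. A peak at the start itself was therefore called in 1 of the 2 EXT libraries and in the RC library.

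Pcdhgc5, the last gamma isoform, had a peak ending or crossing at its start in all 3 lists. The pileup was 56 tags in EXT replicate 1, 135 in EXT replicate 2 and 78 in RC replicate 3, with folds of 3.44, 5.17 and 3.51. These peaks stood above 66.7%, 90.4% and 71.8% of their lists. The pileup of 135 tags was the highest of any peak inside the 3 clusters.

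Pcdhgc4, the C-type isoform known in mouse for its role in the survival of cortical interneurons, was the only C-type gene with no promoter peak. A peak began 1014 bp after its start, 14 bp beyond the window, in EXT replicate 2 (303 bp, 100 tags, fold 4.09) and in RC replicate 3 (160 bp, 80 tags, fold 4.09), and EXT replicate 1 had none there. With a window of 2000 bp on either side, all 5 C-type genes had a peak in every list, and in EXT replicate 1 the one counted for Pcdhgc4 lay before its start.

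Of the 4 members outside the C-type with a promoter peak, 3 had narrow peaks. Pcdhga11 had a peak of 163 bp with identical bounds in all 3 lists, from 742 to 904 bp after its start, with folds of 6.92 in EXT replicate 1, 5.69 in EXT replicate 2 and 8.81 in RC replicate 3. Pcdha9 had a peak of 162 bp in EXT replicate 2, from -192 to -31 bp of its start, with a fold of 7.47. Pcdhb20 had a peak of 160 bp from 435 to 594 bp after its start, where its fold was 8.0 in EXT replicate 2, against 5.63 in RC replicate 3. All 3 genes thus rested on peaks barely wider than the 150 bp to which the authors extended each tag. Of other protein-coding genes with a promoter peak, 13.9% had a best one of 165 bp or less in EXT replicate 1. That share was 8.06% in EXT replicate 2 and 13.9% in RC replicate 3. Among C-type genes with a promoter peak it was 1 of 4, 0 of 4 and 1 of 4 in the same order. Among the other members with one it was 1 of 2, 3 of 4 and 2 of 2.

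Pcdhga12, counted in both EXT lists, did not have the same peak in both. In EXT replicate 1 a peak of 277 bp lay 510 to 786 bp after its start, with 25 tags and a fold of 3.47. In EXT replicate 2 a peak of 211 bp lay 206 to 416 bp after its start, with 23 tags and a fold of 3.07. The 2 peaks do not overlap, and the lowest pileup of any peak in these lists was 14 and 13 tags. The EXT-only count was 0 with a window of 500 bp, with equally long lists, or with a −log10 q of at least 5.

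**Figure D2:**
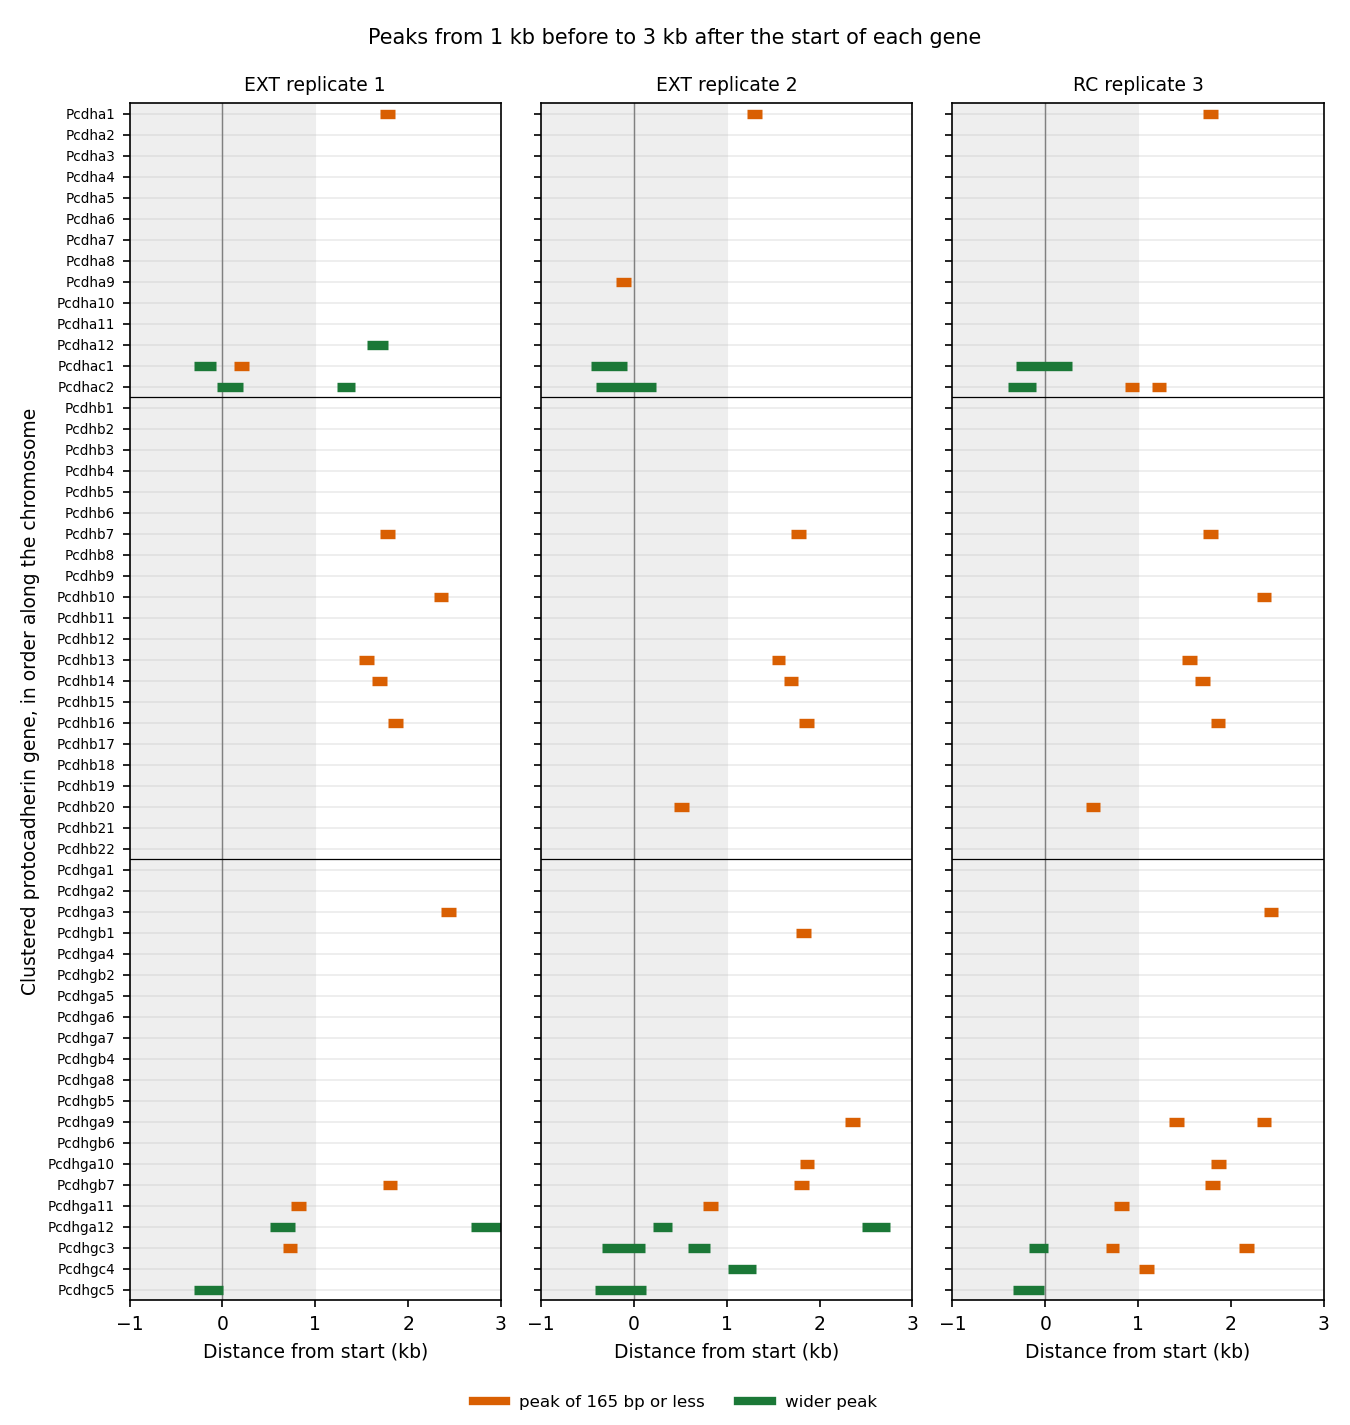
Each row is a clustered protocadherin gene in chromosome order, and each bar is a peak placed by its distance from the gene's start in EXT replicate 1, EXT replicate 2 and RC replicate 3; the shaded band is the 1 kb on either side counted as the promoter. Wide peaks cluster at the starts of the C-type genes, and most bars at other genes are 165 bp or less and lie 1 to 3 kb after the start.

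More of the members had a peak inside the gene, 1 to 3 kb after the start, than at the promoter. Such a peak was found at 11 of 57 genes in EXT replicate 1 (19.3%, background 13.8%), at 11 in EXT replicate 2 (19.3%, background 18.3%) and at 13 in RC replicate 3 (22.8%, background 15.7%). The background share lies inside the 95% interval of the members' share in each library, which was 10.0 to 31.9% in both EXT libraries and 12.7 to 35.8% in RC replicate 3. The width of these peaks was where the members differed in value from other genes. The best such peak was 165 bp wide or less in 8 of 11, 9 of 11 and 13 of 13 members, against 33.1%, 25.4% and 33.9% of other genes with a peak there.

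Some of these narrow peaks recurred at the same genes. Within 1 kb before to 3 kb after the starts of the 52 members that are not C-type, 9 of 12 peaks in EXT replicate 1, 12 of 14 in EXT replicate 2 and 13 of 13 in RC replicate 3 were 165 bp or less. Over all peaks of these lists the share that narrow was 38.2%, 31.2% and 40.8%. The narrow peaks fell in 14 genes in any list, and in 7 genes in all 3 lists: Pcdha1, Pcdhb7, Pcdhb13, Pcdhb14, Pcdhb16, Pcdhgb7 and Pcdhga11. At Pcdha1 the peak of EXT replicate 2 did not overlap that of EXT replicate 1 and RC replicate 3. The matching shares of other protein-coding genes were not worked out, so these counts are not shown to be particular to the members. The beta cluster held no other kind: all 5, 5 and 6 of its peaks were 165 bp or less and lay inside annotated beta genes.

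Pcdhb16 had the highest fold inside the clusters in EXT replicate 1 and RC replicate 3, and Pcdhga9 had it in EXT replicate 2. Its peak of 161 bp lay 1780 to 1940 bp after the start with identical bounds in every list, and held 90 tags in EXT replicate 1 (fold 14.6), 40 in EXT replicate 2 (fold 7.29) and 95 in RC replicate 3 (fold 13.9). Pcdhb14 had a peak of 160 bp, again with identical bounds, with folds of 13.7, 6.93 and 10.1 in EXT replicate 1, EXT replicate 2 and RC replicate 3. Pcdhb13 had folds of 12.9, 4.44 and 9.24 in the same order, and Pcdhb7 had folds of 8.37, 6.58 and 7.22. At all 4 genes the RC value lay between the EXT values, the lowest of which came from EXT replicate 2. Pcdhb10 had its narrow peak in EXT replicate 1 (fold 5.47) and RC replicate 3 (fold 4.04) only.

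In the gamma cluster narrow peaks were less regular. Pcdhgb7 had one about 1.7 kb after its start in every list, with folds of 8.53, 4.09 and 6.67 in EXT replicate 1, EXT replicate 2 and RC replicate 3. Pcdhga3 had one in EXT replicate 1 (fold 8.69) and RC replicate 3 (fold 7.66). Pcdhga9 had one in EXT replicate 2 (fold 10.8) and 2 in RC replicate 3 (folds 5.78 and 5.06), Pcdhga10 had one in EXT replicate 2 (fold 3.56) and RC replicate 3 (fold 4.91), and Pcdhgb1 had one in EXT replicate 2 alone (fold 4.44). No narrow gamma peak was present in both EXT lists and absent from the RC list.

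The first and last genes of the clusters varied. Pcdha1, the first alpha gene, had a narrow peak 1698 to 1857 bp after its start in EXT replicate 1 (fold 8.53) and RC replicate 3 (fold 5.34), and in EXT replicate 2 a separate one 1218 to 1377 bp after it (fold 4.62). Pcdhac2 at the other end of the alpha cluster and Pcdhgc5 at the far end of gamma had peaks at their starts, described above. Pcdhb1, Pcdhb22 and Pcdhga1 had no peak from 1 kb before to 3 kb after the start in any list.

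Joining overlapping peaks of the 3 lists gave 59 regions over the 911.6 kb from the first alpha to the last gamma gene, and 17 of them were in all 3 lists (28.8%, against 25.8% of regions genome-wide). In the parts that hold the alternate and beta genes, 22 of 30 regions were 165 bp or less (73.3%), and 9 of the 15 regions found in 2 or 3 lists had identical bounds in each (60%). In the parts that hold the C-type and constant exons, 6 of 23 regions were that narrow (26.1%, where 31.2 to 40.8% of all single peaks were), and 0 of the 12 found in 2 or 3 lists had identical bounds. Genome-wide the share with identical bounds was 21.8%. Only 1 region of the span was shared by the EXT lists and missing from the RC list, against 4.34% genome-wide, and 6 were in the RC list only, against 10.7%. Another 17 were in EXT replicate 2 only, which has the longest list. Genome-wide, 49.3% of regions were in 1 list only, and the share in EXT replicate 2 alone was not worked out.

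Peak density followed the same division along the chromosome. The alternate alpha part held 1.88, 3.13 and 2.50 peaks per 100 kb in EXT replicate 1, EXT replicate 2 and RC replicate 3, and the beta cluster held 1.94, 1.94 and 2.33. The C-type alpha part with the constant exons held 7.02, 7.02 and 8.02, and the C-type gamma part with its constant exons held 11.0, 30.2 and 21.9. The whole of chromosome 18 held 2.97, 4.62 and 3.72. The C-type parts therefore lay above the chromosome in every library and the beta cluster lay below it in every library. The alternate gamma part, with 3.46, 8.30 and 4.15, also lay above the chromosome in each, while the alternate alpha part lay below it in each.

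Long stretches of the span, ranked here by length and not by number of members, held no peak of any list. The longest stretch, 139.2 kb, covered the starts of Pcdhb21 and Pcdhb22 and the space after them. The next, 83.0 kb, covered the 7 starts from Pcdhb1 to Pcdhb7, and the third, 70.4 kb, the 3 starts from Pcdhb8 to Pcdhb10. A shorter stretch, between positions 37682180 and 37738271, held more starts than any of these, from Pcdhga4 to Pcdhga9 in the gamma cluster. How long such stretches are elsewhere in the genome was not worked out.

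**Figure D3:**
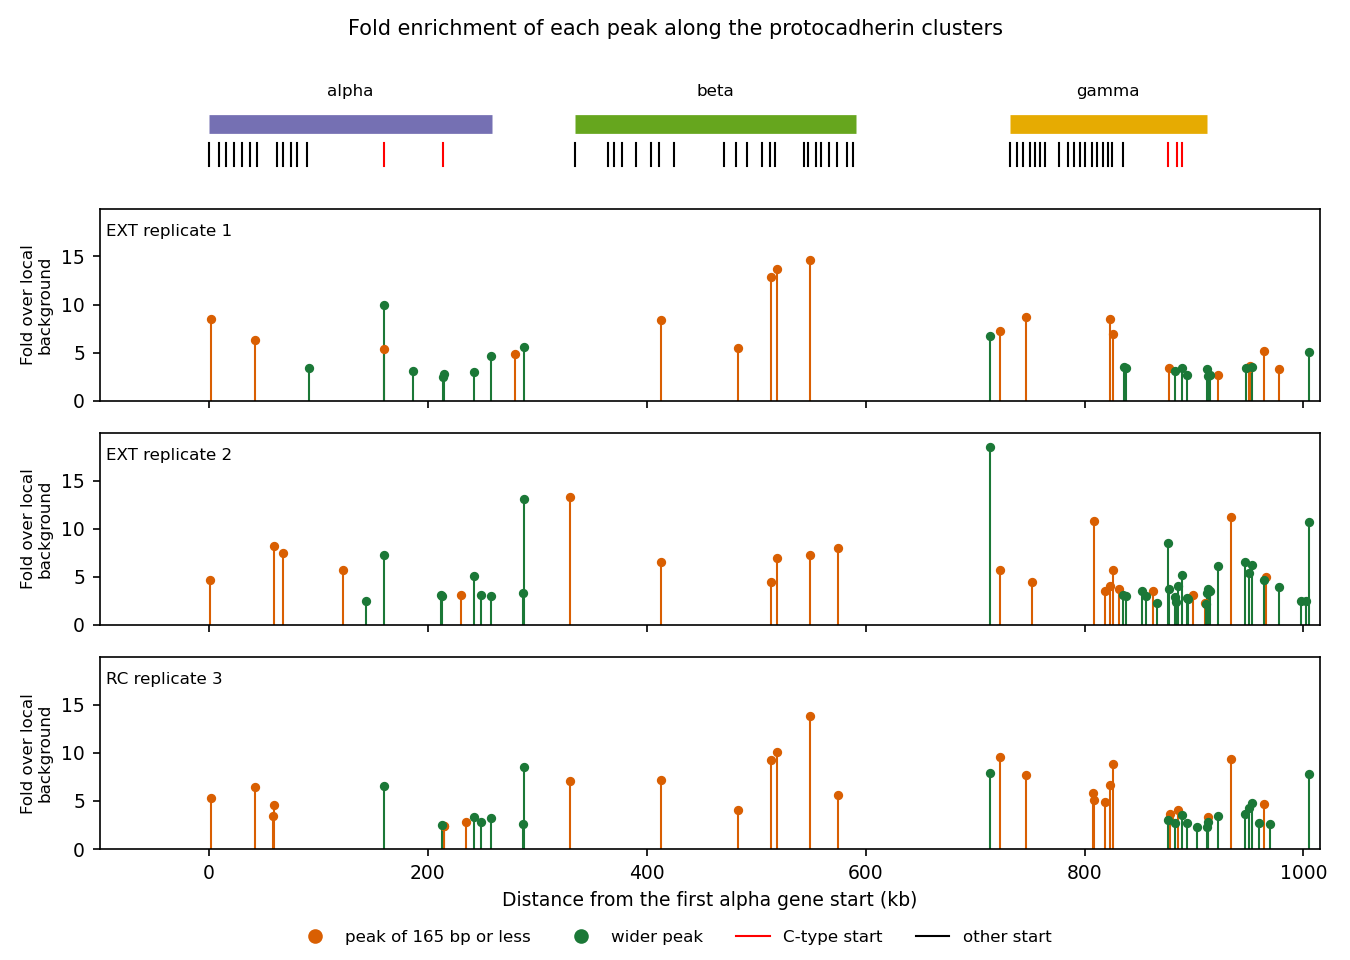
Fold over local background of every peak from 100 kb before the first alpha gene to 100 kb after the last gamma gene, by distance from the first alpha start, in EXT replicate 1, EXT replicate 2 and RC replicate 3, with gene starts marked above. Beta genes carry only peaks of 165 bp or less, up to a fold of 14.6, and wider peaks gather around the C-type starts and after the gamma cluster.

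Open regions also lay between the clusters. In the 76.1 kb between the alpha and beta genes, the region at chromosome 18 positions 37217882 to 37218535 (mm10) was called in all 3 lists, 29.0 kb past the alpha genes and 46.5 kb before Pcdhb1. Its peak was 609 bp wide in EXT replicate 1 (34 tags, fold 5.63), 633 bp in EXT replicate 2 (99 tags, fold 13.1) and 618 bp in RC replicate 3 (58 tags, fold 8.48). It was the widest recurrent region of that gap, and the RC library lay between the EXT libraries in fold. A peak of 160 bp at positions 37260257 to 37260416, 4.58 kb before Pcdhb1, was called in EXT replicate 2 (fold 13.3) and RC replicate 3 (fold 7.08).

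In the 140.4 kb between the beta and gamma genes only 2 regions were called, each in all 3 lists. The region at positions 37644060 to 37644631 overlapped the upper annotated end of Taf7, which encodes a subunit of the general transcription factor TFIID. Its folds were 6.76 in EXT replicate 1, 18.5 in EXT replicate 2 and 7.94 in RC replicate 3. A peak of 161 bp at positions 37652815 to 37652975 had identical bounds in every list, with folds of 7.24, 5.69 and 9.53 in the same order. Slc25a2, the other gene of that gap, had no peak at either end in any list.

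Inside the C-type and constant parts, regions with no member start were also called in every list. In the alpha cluster these included positions 37172208 to 37172625 and 37187968 to 37188398, the last near the annotated end of the alpha genes. In the gamma cluster they included positions 37812858 to 37813715, before the start of Pcdhgc4, and 37823897 to 37824231, inside Pcdhgc5 after its start. In the 100 kb after the gamma cluster, which holds Diaph1 and the lower end of Hdac3, 18 regions were called and 8 were in all 3 lists. Peak density there was 11, 14 and 12 per 100 kb in EXT replicate 1, EXT replicate 2 and RC replicate 3. In the 100 kb before the alpha cluster no peak was called in any list.

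The authors' pileup and fold give back the local background of each peak, the number of tags that the peak caller took as its reference there. That reference cannot fall below the genome-wide level, which was 5.21, 4.63 and 5.92 tags in EXT replicate 1, EXT replicate 2 and RC replicate 3. Every beta peak sat at that lowest level (5 of 5, 5 of 5 and 6 of 6, within 2%), and so did every peak of the alternate alpha part (3 of 3, 5 of 5 and 4 of 4). In the alternate gamma part 3 of 5, 6 of 12 and 5 of 6 peaks did. Over all peaks of the lists the share at the lowest level was 30.6%, 31.5% and 33.5%.

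The C-type gamma part had higher local background. None of its 4, 11 and 8 peaks sat at the lowest level, and the median local background was 2.43 times that level in EXT replicate 1, 3.66 times in EXT replicate 2 and 1.95 times in RC replicate 3, against medians of 1.29, 1.36 and 1.27 over all peaks. The highest value inside the clusters, 5.47 times the lowest level, was at Pcdhgc5 in EXT replicate 2. In the 100 kb after the gamma cluster the medians were also high. They were 2.09, 2.83 and 2.21 times the lowest level in the same library order. The C-type alpha part lay nearer to the general level, with 1 of 7, 1 of 7 and 0 of 8 peaks at the lowest level and medians of 1.21, 1.96 and 1.53 times it. A fold around Pcdhgc5 is measured against a denser surrounding, so at that gene in RC replicate 3 a pileup of 78 tags corresponds to a fold of 3.51, whereas at Pcdhb14 in the same library 69 tags correspond to a fold of 10.1.

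**Figure D4:**
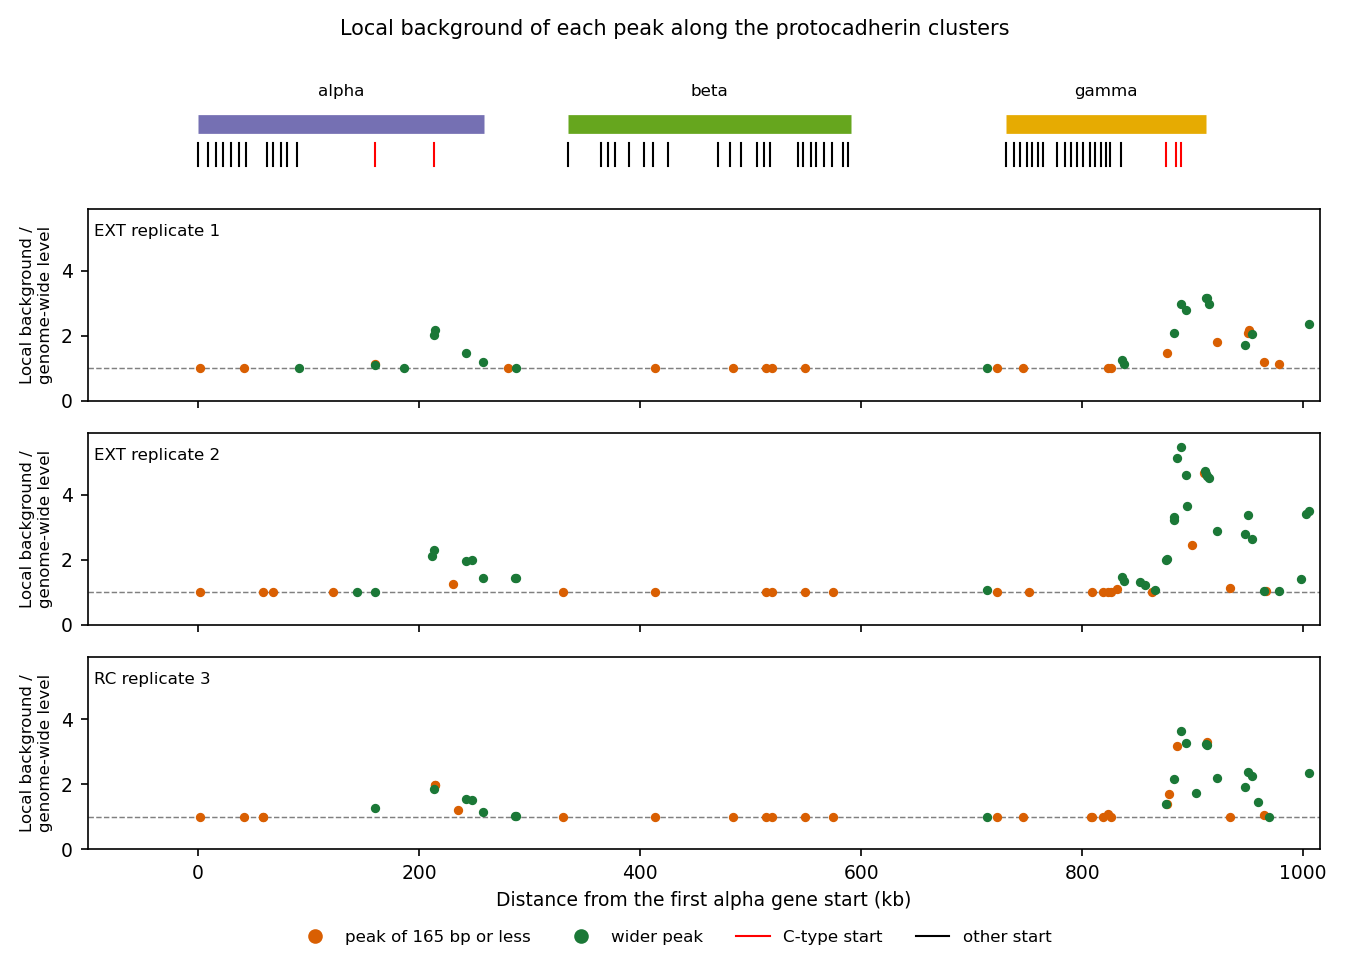
Local background of each peak, as a multiple of the lowest level the peak caller allows in that library (dashed line at 1), by distance from the first alpha start, in EXT replicate 1, EXT replicate 2 and RC replicate 3. Peaks at alternate alpha and beta genes lie on the line, and those around the gamma C-type starts reach 2.99, 5.47 and 3.63 times it. Those after the gamma cluster reach 3.17, 4.64 and 3.31 times it.

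Genes known to act on these promoters were also scored. Of 20 regulators of clustered protocadherin choice and silencing, 16 could be scored, and 11, 12 and 12 had a promoter peak in EXT replicate 1, EXT replicate 2 and RC replicate 3 (68.8%, 75% and 75%, against 50%, 56.4% and 52% of protein-coding genes). Ctcf, the insulator protein that joins promoters to enhancers, had folds of 6.94, 5.62 and 8.13 in that order. Smchd1, a chromatin protein that silences the clusters, had folds of 6.57, 7.26 and 7.43, and Dnmt3b, the DNA methyltransferase that marks their promoters in the embryo, had folds of 9.02, 5.09 and 7.38. The Dnmt3b peaks were 165, 224 and 160 bp wide in the same order, and the Ctcf peak of EXT replicate 1 was 160 bp. Setdb1, a histone methyltransferase, had a peak in EXT replicate 2 and RC replicate 3 only. Dnmt1, Dnmt3a, Stag1 and Wapl had none in any list.

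Of 18 genes for intracellular partners, 9 could be scored, and 7, 8 and 7 had a promoter peak in EXT replicate 1, EXT replicate 2 and RC replicate 3 (77.8%, 88.9% and 77.8%, against the same 50%, 56.4% and 52%). Fyn, a kinase, had folds of 9.88, 12.8 and 12.3, and Wasf1, a subunit of the WAVE complex that drives actin branching, had folds of 5.46, 8.38 and 6.49. Src had no peak in any list, and Cyfip2 had one in EXT replicate 2 only.

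The non-clustered protocadherins, each encoded at its own locus, carried promoter peaks more often in value than the clustered genes. Of 12 listed, 9 were scored, and 6, 7 and 6 had a promoter peak in EXT replicate 1, EXT replicate 2 and RC replicate 3 (66.7%, 77.8% and 66.7%, against 50%, 56.4% and 52% of protein-coding genes). Pcdh8, Pcdh10, Pcdh15, Pcdh17 and Pcdh18 had one in all 3 lists, with folds for Pcdh10 of 4.90, 6.26 and 3.44. The Pcdh18 peaks were only 150, 163 and 163 bp wide in EXT replicate 1, EXT replicate 2 and RC replicate 3. Pcdh19 had peaks of 150 bp in EXT replicate 2 and RC replicate 3 only. The share without such narrow peaks was not worked out for this list. Pcdh9 and Pcdh20 had none in any list. Pcdh7 had one in EXT replicate 1 (fold 3.64) and EXT replicate 2 (fold 3.95) and none in RC replicate 3. It was the only gene with that pattern among the 16 regulators, 9 partners and 9 non-clustered genes scored. Of the other protein-coding genes, 1.8% had it.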

How the data were processed

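Each ATAC-seq peak list was made by the authors from 1 library. Per the file headers, peaks were called with MACS 2.2.4 with no control, a shift of -75 bp, an extension of tags to 150 bp, all duplicates kept and a q cutoff of 0.05. The submitters' processing notes name mm10 and, with no role given, the tools MACS2 2.2.4, BWA 0.7.17, HISAT2 2.1.0, cutadapt 1.17, bedtools 2.27.1, SAMtools 1.8 and StringTie 2.1.4. The placing of reads that match several of these similar genes is not stated here. The deposited pileup is a coverage signal in whole tags, the deposited fold is its ratio to local background, and −log10 values of p and q were deposited for the same peaks.

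Gene positions came from a RefSeq table of GRCm38.p6, the same build as mm10. A member's start was its lower annotated end, since the table gives no strand. The strand of other genes came from RefSeq promoter positions of that build, and members were compared with the 17492 genes that had one. Pcdhgb8 is a pseudogene in the table and was left out, as were 3 read-through genes with other symbols. Percentiles rank a peak by its −log10 q within its list. Local background is (pileup + 1) / fold − 1. Peaks were called narrow at up to 1.1 times the tag extension, 165 bp. Overlap scoring was tested on simulated data. Python 3.11.15, numpy 2.4.6, pandas 2.3.3, scipy 1.17.1 and matplotlib 3.10.9 were used.

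The members and lists were chosen with earlier results of these data known. Values by library are given for the C-type genes, members with promoter peaks, the strongest peak of each gap and the genes at cluster ends; the narrow peaks, local background and other members named were chosen after their values were seen. Libraries are pools of 5 mice, so SDs measure the spread between pools and between library preparations.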

Additional observations from a re-analysis of the deposited data

How the results depend on the processing

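No paired analysis was possible because RC replicate 3 shares no replicate number with EXT replicates 1 and 2. Of 202 alternative values, 167 were counted as unchanged, though some of these still moved in size. For shares and EXT minus RC, unchanged meant within the counting interval or spread of the value given. For other differences it meant no reversal of sign. For peak densities and counts of members it meant within a fixed ratio of the value given. The share of all members in EXT replicate 1 was 5.26% with a window of 500 bp, against 10.5% with 1000 bp. The C-type share fell to 60% in EXT replicate 1 and RC replicate 3 at −log10 q of at least 5. With equally long lists it was 60% in EXT replicate 2 and RC replicate 3. EXT replicate 1 also gave 60% with a window of 500 bp and from 500 bp before to 100 bp after the start. Without peaks of 165 bp or less it again gave 60%. C-type minus other members was 62.2 points at that q limit and with equally long lists. A window of 2000 bp raised the share of all members with a peak to 26.3%, 29.8% and 28.1% in EXT replicate 1, EXT replicate 2 and RC replicate 3, that of C-type genes to 100% in each, and that of other members to 19.2%, 23.1% and 21.2%. The share of other members was 0% in EXT replicate 1 with a window of 500 bp, 0%, 1.92% and 0% from 500 bp before to 100 bp after the start, and 1.92% in EXT replicate 2 and 0% in RC replicate 3 without peaks of 165 bp or less, an alternative chosen after seeing the data. The gamma minus alpha difference turned to -7.14 points with a window of 500 bp, -8.73 from 500 bp before to 100 bp after the start, -0.79 without peaks of 160 bp or less and -3.17 without those of 165 bp or less. Leaving out each library in turn gave -1.19 (without EXT replicate 1) to 2.38 points for it. The same gave 12.0 to 15.6 for alpha minus beta, 12.1 to 16.8 for gamma minus beta, 74.2 to 76.2 for C-type minus other members, -41.9 to -40.5 for members minus other genes and 0 to 3.51 for EXT minus RC. Peaks per 100 kb, averaged over the libraries, were 4.37 in the alpha cluster and became 2.57 at −log10 q of at least 5, 2.82 without peaks of 160 bp or less and 2.44 without those of 165 bp or less. Under those 2 width limits the beta cluster (2.07) became 0.78 and 0, the gamma cluster (8.47) 5.15 and 4.42, and the alpha to beta gap (3.55) 2.22 under both, and the beta to gamma gap (1.44) became 0.72 under the wider limit. Leaving out a library gave 4.24 to 4.62 for alpha, 1.94 to 2.14 for beta, 6.35 to 10.2 for gamma, 3.33 to 3.99 and 1.44 for the gaps, and 11.5 to 13.0 for the 100 kb after gamma. The EXT-only count of members became 0 with equally long lists, a window of 500 bp, −log10 q of at least 5, or the window from 500 bp before to 100 bp after the start, and the RC-only count became 1 (Pcdhga9) with 2000 bp. The cause of these shifts was not tested.

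The lists differ in length, the RC side is a single library, and peaks near the calling limit can be present or absent by counting error alone. The lowest pileups called, 13 to 15 tags, were at the lowest local background, and the limit is higher where local background is higher. The Pcdhac2 peaks of 27 tags in EXT replicate 1 and 29 in RC replicate 3 stood above only 9.52% and 13.1% of their lists. The variable exons resemble each other in sequence, and how reads with several matches were placed was not tested. Peak calling was set to keep all duplicate tags. Whether duplicates had been removed before that step is not stated here, and the part of duplicates in the narrow peaks was not tested.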
